A study of Mus musculus with 6 samples.

Results

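The genes described here encode the scaffold of the cardiac sarcomere outside its myosin, actin and troponin filaments: titin and the nebulin family, the M-band proteins and muscle kinases, the LIM and PDZ-LIM adaptors of the Z-disc, the other Z-disc scaffolds, the anchors that tie the Z-disc to intermediate filaments and to the membrane, and the chaperones and ubiquitin ligases that keep sarcomere proteins folded and turned over. The list was drawn up by gene name and known role, with earlier results of these data known. Its shares of called genes are therefore a description and not a test. It named 43 genes, of which 42 were among the 13809 genes of the count table and all 42 entered the test. *Myot*, which encodes myotilin, was not analysed here.

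RNA sequencing was performed on hearts of mouse embryos at E18.5, dissected to ventricular tissue by the study's account and labelled only as heart in the sample records, with 3 wild-type (WT) and 3 *Pkm1*-knockout (KO) libraries. The KO embryos were homozygous for a germline CRISPR/Cas9 deletion in the exon of *Pkm* that is particular to pyruvate kinase M1 (PKM1), so every cell of the embryo carried it. The line was founded in BDF1 hybrid (C57BL/6J by DBA/2) zygotes, and the KO and WT embryos came from the breeding of heterozygotes. The comparison asks which transcripts of the heart differ when the muscle isoform of the last enzyme of glycolysis is missing. The number of embryos in each library was not given in the sources used here, and the p-values measure only the spread between these libraries, named below by genotype and a letter (WT a, WT b and so on).

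The 6 libraries held between 15567624 and 19875546 counts. Counts at *Pkm*, which take in both the M1 and the M2 isoform, checked the labels: they fell from 1318 ± 41.1 to 542 ± 10.1 CPM (counts as a share of the library, scaled by the trimmed mean of M-values and given on the usual CPM scale, mean ± SD, n = 3), a log2 fold change of -1.28 (SE 0.0269, adjusted p = 1.47e-23, by the quasi-likelihood F-test of edgeR, adjusted after Benjamini and Hochberg across 13804 genes). WT c stood further from WT a and WT b (a median chi-square of 2.41 and 2.19 times that of counting noise) than these did from each other (1.52). *Xist* averaged 2285 ± 47.6 CPM over the KO libraries and 5.26 ± 0.500 CPM over the WT libraries, and the Y-linked *Ddx3y* had no count in the KO libraries, so sex and genotype cannot be told apart in any value below. 1 of the 42 genes, *Fhl1*, is X-linked. The cardiomyocyte markers were abundant, at a summed 43597 to 45513 CPM in WT and 37560 to 37880 CPM in KO, with 6 of 8 lower and 1 higher. Of the 16 skeletal muscle markers, 13, *Myod1*, *Myog* and *Pax7* among them, were not in the table, and the other 3 summed to 3.88 to 5.92 CPM in WT and 5.05 to 6.09 CPM in KO.

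In the sarcomere, thin filaments are crosslinked at the Z-disc and thick filaments at the M-band, and titin runs between these structures as a molecular spring. Z-disc and M-band proteins also serve as docking sites for kinases, for LIM-domain proteins that move between the sarcomere and the nucleus, and for ubiquitin ligases. Through desmin filaments, filamin C and vinculin the Z-disc is linked to neighbouring myofibrils and to the costamere at the plasma membrane, and variants of many of these genes are known causes of cardiomyopathy.

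Most of the scaffold transcripts were lower in KO hearts, by small amounts. Of the 42 genes, 31 passed an adjusted p under 0.05, where 30.3% of all genes tested did: 28 (66.7%) fell, beside 15.7% of all genes, and 3 (7.14%) rose, beside 14.6%. The 11 others did not pass. Without WT a, 5 genes were called higher, *Myom3* and *Trim54* being the additions. The median log2 fold change of the 42 genes was -0.12 (quartiles -0.27 and 0.01), beside 0.0017 over all genes tested (quartiles -0.12 and 0.14). Of the 42, 12 (28.6%) fell by at least 1.2-fold, against 7.85% of all genes, and 1, *Cmya5*, fell by at least 1.5-fold, against 3.2%. None of the 3 increases reached 1.2-fold, as 8.94% of all genes did, or 1.5-fold, as 2.99% did. Every KO library lay below every WT library for 30 of the 42 genes (71.4%, against 21.4% of all genes) and above for 6 (14.3%, against 21% of all genes). Since 40 of the 42 had a mean of at least 10 CPM, the share among genes at that level is given as well: 18.4% of those 9494 genes were lower and 15.0% higher. In bulk tissue, fewer cardiomyocytes and less of a transcript per cardiomyocyte cannot be told apart. The summed cardiomyocyte markers were lower in the same libraries, and their part in these differences was not tested.

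**Figure D1:**
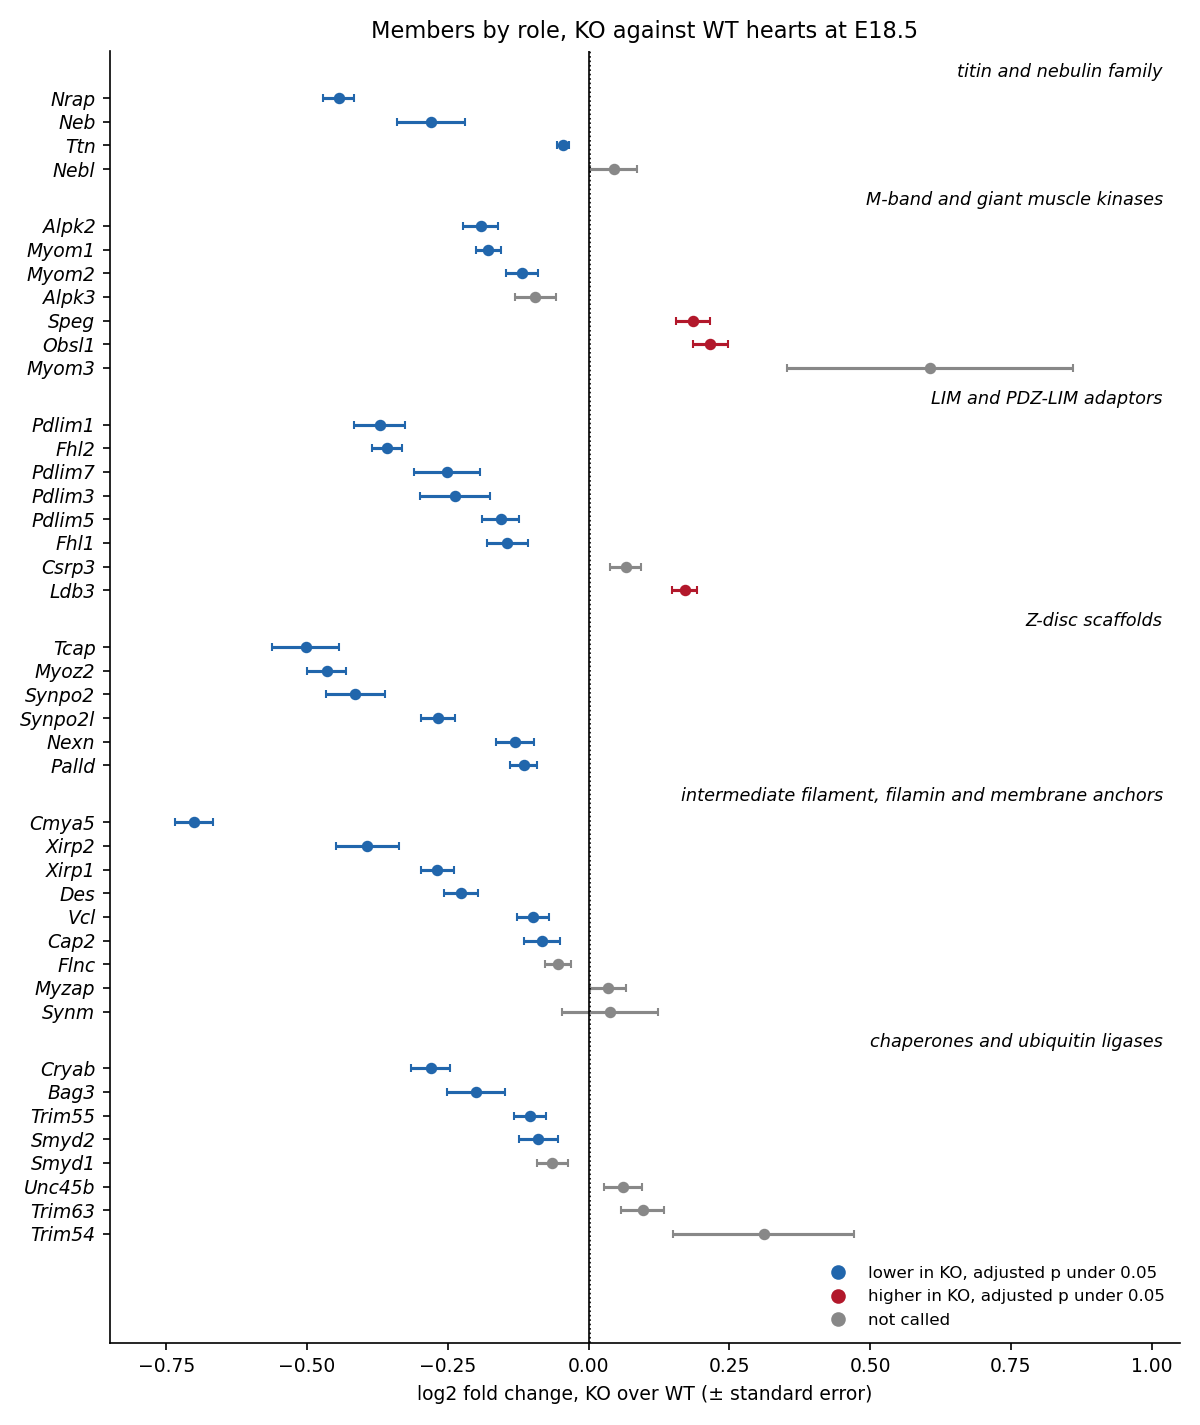
Log2 fold change (KO over WT, horizontal axis) of each of the 42 genes with its standard error as a bar, grouped by role and coloured by whether the gene was called lower, higher or neither; the dotted line is the median of all genes tested. *Cmya5* lies furthest to the left at -0.70, all 6 Z-disc scaffolds lie left of 0, and the called increases of *Ldb3*, *Speg* and *Obsl1* lie between 0.17 and 0.22.

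The split between directions depended on how the libraries were scaled. With the trimmed mean of M-values, 51.9% of all calls and 90.3% of the calls among the 42 genes were lower in KO. With library totals alone these shares were 34.4% and 75% (21 lower and 7 higher), and the median of all genes moved to 0.05, while with upper-quartile factors they were 44.9% and 83.3% (25 lower and 5 higher). The added increases were *Csrp3* and *Trim63* in both settings, and *Myzap* and *Unc45b* with library totals alone.

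Titin dominated the counts. *Ttn* (chr2:76703980-76982547, minus strand, GRCm38), which encodes the giant spring protein of the sarcomere, took 7.76 ± 0.0258% of all counts in WT and 7.77 ± 0.0210% in KO libraries (SD, n = 3). The other 41 genes together took 1.59 ± 0.0101% in WT and 1.504 ± 0.00960% in KO. After scaling, *Ttn* was at 78715, 78696 and 79241 CPM in the WT libraries and at 76701, 76192 and 76420 CPM in the KO libraries. The groups did not overlap, but the difference was small: the log2 fold change was -0.05 (SE 0.0111, adjusted p = 0.00255), and it was 0.0025 (adjusted p = 0.885) with library totals alone. The direction of *Ttn* therefore turned with the scaling. Its call also depended on the test. At a log2 fold change of -0.05, the adjusted p was 0.235 by the exact test of edgeR and 0.198 by the Wald test of DESeq2.

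Among the nebulin family, which binds thin filaments near the Z-disc, *Nrap* fell, *Neb* fell and *Nebl* did not pass. *Nrap* encodes a LIM and nebulin-repeat protein of the intercalated disc and of assembling myofibrils. It was at 731, 759 and 771 CPM in WT and at 548, 556 and 559 CPM in KO libraries. Its highest KO library was well below its lowest WT library, and the log2 fold change was -0.44 (SE 0.0270, adjusted p = 5.74e-13). *Neb*, the nebulin of skeletal muscle, was expressed at a low level of 36.7, 36.4 and 38.8 CPM in WT and 30.6, 32.0 and 29.6 CPM in KO (log2 fold change -0.28, SE 0.0605, adjusted p = 8.42e-04). *Nebl*, the cardiac nebulette, was at 236, 239.9 and 208 CPM in WT and 227, 244 and 236 CPM in KO. These ranges overlapped, and its log2 fold change of 0.04 (SE 0.0416) did not pass the test (adjusted p = 0.454).

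**Figure D2:**
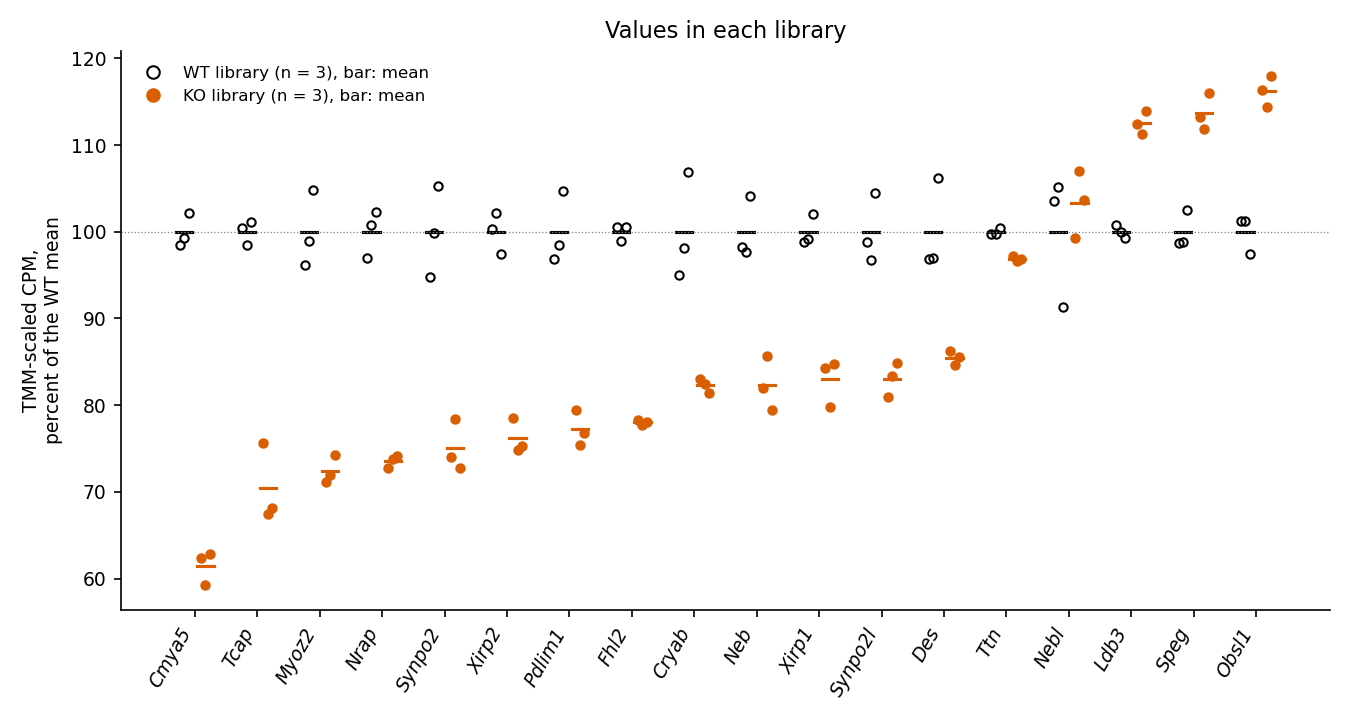
Scaled CPM in each library as a percent of the WT mean of that gene, for 12 genes that fell by at least 1.2-fold and for other genes described in the text, with WT and KO libraries as separate points. *Cmya5* stands lowest in KO, at 61.5% of the WT mean, *Nebl* shows overlapping groups, and *Ldb3*, *Speg* and *Obsl1* stand above 100% in KO.

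All 6 of the measured genes grouped here as Z-disc scaffolds fell (15.7% of all genes did), with a median log2 fold change of -0.34. The LIM and PDZ-LIM adaptors of the Z-disc are a separate group, which holds *Ldb3*, which rose, and *Csrp3*, which did not pass. Of the 6 scaffolds, the largest decrease was at *Tcap*, whose product telethonin caps the titin ends in the Z-disc. It was at 44.8, 43.9 and 45.1 CPM in WT and at 33.8, 30.1 and 30.4 CPM in KO, without overlap (log2 fold change -0.50, SE 0.0596, adjusted p = 2.62e-07). *Myoz2*, which encodes the calcineurin-binding protein calsarcin-1, was at 278, 286 and 303 CPM in WT and at 206, 208 and 215 CPM in KO. The KO libraries were closely grouped at 72.4% of the WT mean (log2 fold change -0.47, SE 0.0348, adjusted p = 4.497e-11).

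*Synpo2*, encoding the Z-disc protein myopodin, lies next to *Myoz2* on chromosome 3 on the same strand, 41.5 kb away with 0 protein-coding genes between them. It was at 62.7, 66.1 and 69.6 CPM in WT and at 49.0, 51.8 and 48.1 CPM in KO, again without overlap (log2 fold change -0.41, SE 0.0525, adjusted p = 8.17e-07). Its relative *Synpo2l* was about an order of magnitude more abundant in CPM, at 617, 604 and 653 CPM in WT and at 506, 520.5 and 530.5 CPM in KO. The decrease was smaller but the groups remained apart (log2 fold change -0.27, SE 0.0301, adjusted p = 1.08e-07). *Nexn*, which encodes the F-actin binding nexilin, fell from 463 ± 20.8 to 422 ± 16.8 CPM (log2 fold change -0.13, adjusted p = 0.00384), and without KO c it did not pass (-0.10, adjusted p = 0.0525). *Palld*, encoding the actin-bundling palladin, fell from 952 ± 12.4 to 879 ± 4.42 CPM (log2 fold change -0.11, adjusted p = 6.31e-04).

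Promoter sequences from RefSeq (GRCm38.p6) are shown for the genes with the largest called decreases and for those with increases, since these are the genes whose differences stand out in either direction. *Tcap* had no promoter in the RefSeq sequences used and is named only. Each line gives the 250 bases before the annotated start, 5′ to 3′ on the strand of the gene, for *Cmya5* (chr13:93144725-93144974, minus strand), *Myoz2* (chr3:123034988-123035237, minus strand), *Obsl1* (chr1:75506453-75506702, minus strand), *Speg* (chr1:75375047-75375296, plus strand) and *Ldb3* (chr14:34588682-34588931, minus strand). Capitals mark matches, on either strand, to CCAAT, to GGGCGG (the GC box), to the CArG box bound by serum response factor and to the MEF2 site.
Cmya5: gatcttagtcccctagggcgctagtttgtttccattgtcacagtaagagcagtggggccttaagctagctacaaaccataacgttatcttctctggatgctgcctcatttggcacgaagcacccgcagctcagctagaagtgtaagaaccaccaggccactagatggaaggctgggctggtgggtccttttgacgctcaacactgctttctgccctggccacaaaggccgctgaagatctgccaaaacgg
Myoz2: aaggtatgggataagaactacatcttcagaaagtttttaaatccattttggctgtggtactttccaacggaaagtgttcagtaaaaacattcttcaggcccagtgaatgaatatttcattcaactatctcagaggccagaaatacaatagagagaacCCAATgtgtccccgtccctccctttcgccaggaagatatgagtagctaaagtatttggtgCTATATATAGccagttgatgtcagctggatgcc
Obsl1: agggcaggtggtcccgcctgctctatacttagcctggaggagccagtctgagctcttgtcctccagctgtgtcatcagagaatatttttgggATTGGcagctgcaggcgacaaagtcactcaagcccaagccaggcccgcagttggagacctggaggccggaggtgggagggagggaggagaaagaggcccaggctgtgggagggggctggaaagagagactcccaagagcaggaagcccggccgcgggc
Speg: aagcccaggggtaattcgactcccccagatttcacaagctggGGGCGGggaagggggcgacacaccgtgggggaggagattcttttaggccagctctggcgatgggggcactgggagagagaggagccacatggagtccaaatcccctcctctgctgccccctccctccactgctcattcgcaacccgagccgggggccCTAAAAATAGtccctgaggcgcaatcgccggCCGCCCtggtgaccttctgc
Ldb3: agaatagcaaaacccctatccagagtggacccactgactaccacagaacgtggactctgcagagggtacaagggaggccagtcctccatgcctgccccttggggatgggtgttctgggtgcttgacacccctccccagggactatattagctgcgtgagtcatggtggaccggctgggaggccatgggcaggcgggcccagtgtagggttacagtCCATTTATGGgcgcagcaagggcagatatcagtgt
In these stretches *Myoz2* held a MEF2 match beginning 33 bases before the start and a CCAAT match 93 bases before it, *Speg* a MEF2 match 51 bases before the start and GC boxes 208 and 20 bases before it, *Ldb3* a CArG match 35 bases before the start, and *Obsl1* a CCAAT match, on the opposite strand, 158 bases before it. The *Cmya5* stretch held no match to these 4 motifs.

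Over the whole RefSeq windows, which run from 250 bases before to 50 bases after each start, 34 of the 42 genes could be matched, with 49 windows. A CArG match was found for 6 of the 34 (17.6%, against 1.81% of 27025 genes): *Fhl1*, *Fhl2*, *Ldb3*, *Myom1*, *Nebl* and *Vcl*. A MEF2 match was found for 9 (26.5%, against 3.70%): *Alpk3*, *Fhl2*, *Myom3*, *Myoz2*, *Speg*, *Synpo2*, *Synpo2l*, *Ttn* and *Xirp2*. Both lists hold genes that fell, genes that rose and genes that did not pass. CCAAT was found for 14 of 34 (41.2%, against 41.1%), GGGCGG for 17 (50%, against 38.2%), and the E-box CANNTG for 25 (73.5%, against 74.99%). By call, GGGCGG was found for 13 of 20 genes called lower (65%), 1 of 3 called higher and 3 of 11 not called (27.3%). Among the 20 called lower, CCAAT was found for 40% and CANNTG for 75%. These splits by call were not tested. Both strands were searched, no CArG match overlapped a MEF2 match in these windows, and a match describes the sequence and not the binding of a factor.

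The anchors between the Z-disc, intermediate filaments and the membrane held the largest decrease of all 42 genes. *Cmya5* (chr13:93040713-93144724, minus strand), which encodes myospryn, a large protein that binds desmin and lies close to the Z-disc, was at 271, 274 and 281 CPM in WT and at 172, 163 and 173 CPM in KO. KO libraries kept 61.5% of the WT level, and the gap between groups was many times the spread within them (log2 fold change -0.70, SE 0.0339, adjusted p = 3.93e-15). Its exons share 20.7% of their length with the antisense gene *A630019I02Rik*, which was below 1 CPM in both genotypes, at 0.963 ± 0.0914 in WT and 0.835 ± 0.288 in KO. They share 1.0% with a further antisense gene, *Gm4814*, which was called lower, from 3.01 ± 0.279 to 1.70 ± 0.149 CPM (adjusted p = 0.00318).

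*Des* encodes desmin, the intermediate filament protein of muscle. It was at 817, 817 and 895 CPM in WT and at 727, 713 and 721 CPM in KO, so the highest KO library was below the lowest WT library (log2 fold change -0.23, SE 0.0301, adjusted p = 1.76e-06). The Xin-repeat genes *Xirp1* and *Xirp2* encode actin-binding proteins of the intercalated disc. *Xirp1* was at 547, 549 and 565 CPM in WT and at 467, 442 and 469 CPM in KO (log2 fold change -0.27, SE 0.0290, adjusted p = 5.40e-08). *Xirp2* was at 47.2, 48.1 and 45.9 CPM in WT and at 36.9, 35.2 and 35.4 CPM in KO (log2 fold change -0.39, SE 0.0553, adjusted p = 4.12e-06). Both were lower in every KO library.

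The other anchors differed little. *Vcl*, encoding the costamere protein vinculin, fell from 528 ± 14.0 to 493 ± 5.97 CPM (log2 fold change -0.10, adjusted p = 0.00894), and did not pass without WT b (adjusted p = 0.0669) or without KO b (adjusted p = 0.0543). Its exons share 25.5% of their length with *Ap3m1* on the opposite strand, itself at 70.7 ± 4.02 CPM in WT hearts and 63.4 ± 0.154 CPM in KO hearts and called lower (adjusted p = 0.0162). *Cap2*, an actin-monomer regulator, fell by 0.08 on the log2 scale with an adjusted p of 0.0478, a call lost in 11 of 16 alternative fits. *Flnc*, encoding filamin C, was lower in every KO library (1268 ± 28.0 CPM) than in the WT libraries (1316 ± 7.49 CPM) but did not pass (log2 fold change -0.05, adjusted p = 0.0844), although it did without WT c (adjusted p = 0.0209). *Synm*, encoding the desmin partner synemin, and *Myzap*, encoding a protein of the intercalated disc, also did not pass, with log2 fold changes of 0.04 (SE 0.0849) and 0.03 (SE 0.0319).

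Of the 8 LIM and PDZ-LIM adaptors, 6 fell and 1 rose, where 15.7% of all genes fell and 14.6% rose, so that 1 increase among 8 is near the background share. *Fhl2*, the most abundant member per exon length after titin in WT, encodes a four-and-a-half-LIM protein that binds the N2B region of titin. It was at 579, 570.1 and 579 CPM in WT and at 451, 447 and 449 CPM in KO, without overlap and with very little spread in either group (log2 fold change -0.36, SE 0.0266, adjusted p = 3.69e-11). *Pdlim1* encodes a PDZ-LIM protein that binds alpha-actinin. It was at 86.5, 87.9 and 93.6 CPM in WT and at 71.0, 67.3 and 68.5 CPM in KO, also without overlap (log2 fold change -0.37, SE 0.0457, adjusted p = 5.13e-07).

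*Pdlim7*, *Pdlim3* and *Pdlim5*, which encode related PDZ-LIM proteins, fell by 0.25, 0.24 and 0.16 on the log2 scale, with adjusted p-values of 0.00189, 0.00462 and 6.31e-04. The X-linked *Fhl1* fell from 144 ± 2.47 to 130.0 ± 2.95 CPM (log2 fold change -0.14, adjusted p = 0.00384). *Csrp3*, encoding the muscle LIM protein, was higher in every KO library (505 ± 6.83 CPM) than in the WT libraries (483 ± 8.76 CPM) but did not pass (log2 fold change 0.07, adjusted p = 0.0697). It passed with upper-quartile factors (adjusted p = 0.0211) and with library totals alone (adjusted p = 0.00251).

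*Ldb3* was the exception among the PDZ-LIM genes. It encodes ZASP (cypher), which binds alpha-actinin in the Z-disc. The per-library values of *Ldb3*, *Speg* and *Obsl1* are given because they were the only increases called, a choice made after their values were seen. *Ldb3* was at 1162, 1153 and 1145 CPM in WT and at 1297, 1284 and 1314 CPM in KO. Every KO library was above every WT library (log2 fold change 0.17, SE 0.0230, adjusted p = 2.18e-06).

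*Speg* and *Obsl1* rose among the M-band genes and muscle kinases. *Speg* encodes a striated muscle kinase of the myosin light chain kinase family, and was at 339, 339 and 352 CPM in WT and at 389, 384 and 398 CPM in KO (log2 fold change 0.19, SE 0.0297, adjusted p = 2.52e-05). *Obsl1* encodes obscurin-like 1, which binds titin and myomesin in the M-band, and was at 278, 278 and 268 CPM in WT and at 319.5, 314 and 324 CPM in KO (log2 fold change 0.22, SE 0.0308, adjusted p = 4.83e-06). Neither overlapped between groups. Both lie on chromosome 1 beside *Des* (chr1:75360329-75368579, plus strand). *Speg* (chr1:75375297-75432320, plus strand) begins 6.7 kb after the end of *Des*, and *Obsl1* (chr1:75479310-75506452, minus strand) lies 47.0 kb further with 3 protein-coding genes between. *Des* fell while both neighbours rose.

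The myomesins crosslink myosin filaments and titin at the M-band. *Myom1* fell from 1706 ± 32.6 to 1508 ± 6.08 CPM (log2 fold change -0.18, adjusted p = 7.52e-07) and *Myom2* from 680 ± 20.8 to 626 ± 18.9 CPM (log2 fold change -0.12, adjusted p = 0.00256). *Myom3* had 28, 23 and 15 counts in WT and 36, 31 and 36 in KO. All its KO libraries were above the WT libraries once scaled, but at this depth the log2 fold change of 0.61 had an SE of 0.255 and did not pass (adjusted p = 0.0731). Of the alpha-kinases, *Alpk2* fell from 263 ± 2.39 to 229.9 ± 2.43 CPM (log2 fold change -0.19, adjusted p = 3.16e-05), and *Alpk3* averaged 349.8 ± 21.4 CPM in WT libraries and 327 ± 10.8 CPM in KO libraries (log2 fold change -0.09, adjusted p = 0.0505). The value for *Alpk3* was -0.04 without WT c, and it was called lower without WT a, without WT b, without KO c and with sex chromosome genes left out, where it ranged from -0.12 to -0.10.

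Among the chaperones and turnover genes, *Cryab* differed most of those called. It encodes alpha-B crystallin, a small heat shock protein that protects desmin and titin, and was at 385, 397 and 433 CPM in WT and at 336, 334 and 329.5 CPM in KO. The WT libraries were spread and the KO libraries close together, without overlap (log2 fold change -0.28, SE 0.0348, adjusted p = 5.55e-07). Its neighbour *Hspb2*, another small heat shock gene, lies on the opposite strand, overlaps 17.04% of the exon length of *Cryab* and averaged 26.9 ± 1.39 CPM in WT libraries and 23.2 ± 1.42 CPM in KO libraries. *Hspb2* was also called lower (adjusted p = 0.0200). *Bag3*, the co-chaperone of filamin turnover, fell from 109 ± 10.6 to 94.6 ± 2.69 CPM (log2 fold change -0.20, adjusted p = 0.00373). Without WT c its log2 fold change was -0.12 (adjusted p = 0.0149), still called.

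The muscle RING-finger ubiquitin ligases did not move together. *Trim55* fell from 369 ± 4.70 to 344 ± 0.515 CPM (log2 fold change -0.10, adjusted p = 0.00729). *Trim63*, encoding MuRF1, was higher in every KO library (135 ± 3.06 CPM) than in the WT libraries (127 ± 4.5 CPM) but did not pass (log2 fold change 0.10, adjusted p = 0.0614), although it did without WT c (adjusted p = 0.0118). It also passed with upper-quartile factors (adjusted p = 0.0274) and with library totals alone (adjusted p = 0.00521). *Trim54* had 61 to 90 counts in WT and 80 to 108 in KO, with a log2 fold change of 0.31 (SE 0.161, adjusted p = 0.148). Of the lysine methyltransferases with a role in myofibrils, *Smyd2* fell by 0.09 on the log2 scale (adjusted p = 0.0494), a call lost in 11 of 16 alternatives, and *Smyd1* had a log2 fold change of -0.06 (adjusted p = 0.0773). *Unc45b*, the myosin chaperone, had a log2 fold change of 0.06 (SE 0.0342, adjusted p = 0.178).

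**Figure D3:**
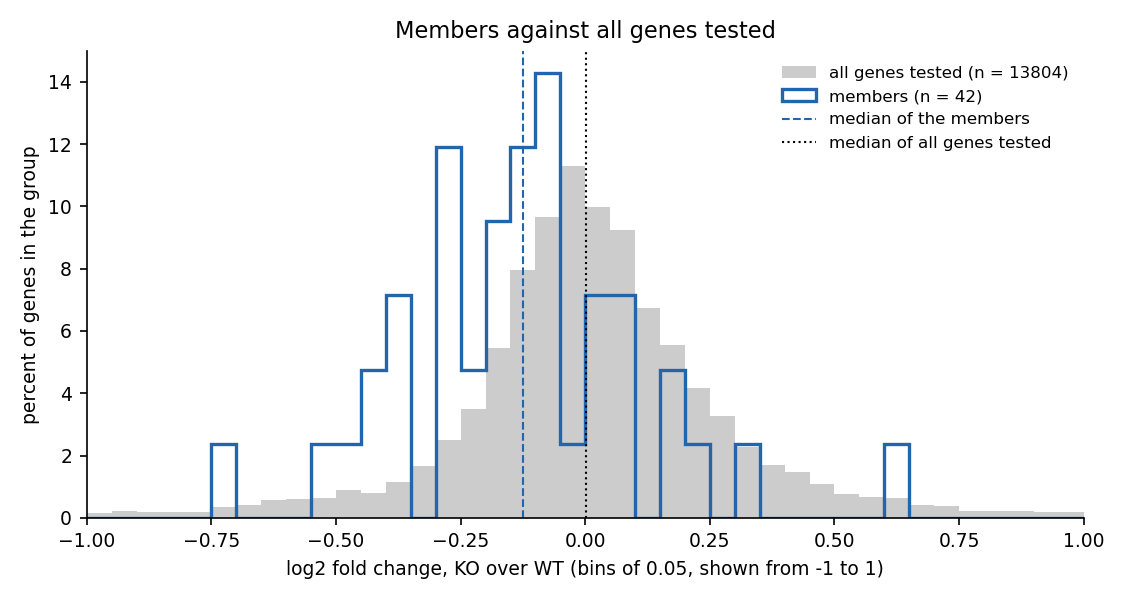
Percent of genes (vertical axis) in each bin of log2 fold change (KO over WT, horizontal axis) for all genes tested (grey) and for the 42 scaffold genes (blue outline), with the median of each as a vertical line. The median of the scaffold genes is -0.12 and that of all genes 0.0017.

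Per kilobase of annotated exon, levels in WT spanned from 675 CPM per kb for *Ttn* to 0.209 for *Myom3*. *Fhl2* (304), *Cryab* (274), *Des* (225), *Ldb3* (189), *Csrp3* (181) and *Myom1* (163) followed *Ttn*, and *Neb* (1.40), *Synm* (2.16), *Trim54* (2.95) and *Xirp2* (3.93) stood above *Myom3* at the low end. In KO hearts the first 3 places were the same, and *Ldb3* (213 CPM per kb) stood above *Des* (192), the reverse of their order in WT. In the KO libraries *Tcap* moved from place 24 to place 29 of 42 and *Obsl1* from 30 to 26.

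**Figure D4:**
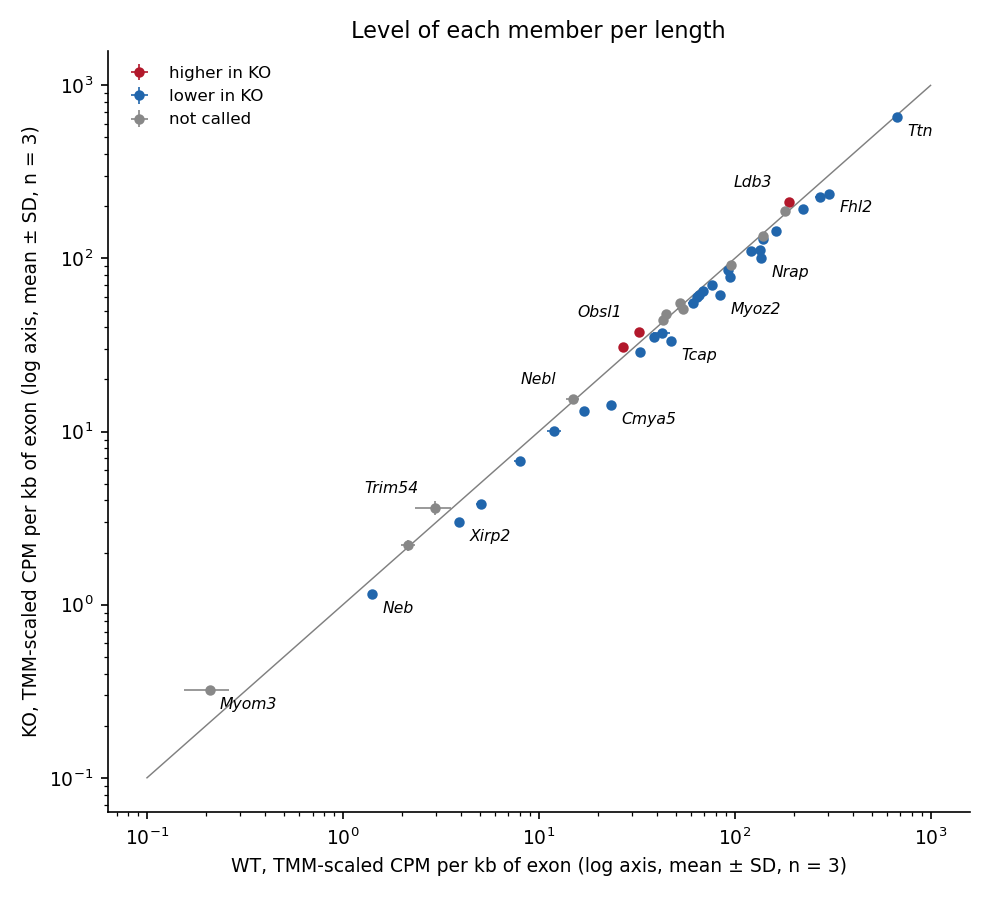
Mean scaled CPM per kb of exon in WT (horizontal, log axis) against KO (vertical, log axis) for the 42 genes, with SD bars (n = 3) and the line of equal level. *Ttn* lies at the top right at 675 and 654 CPM per kb, *Myom3* at the bottom left, and *Cmya5* furthest below the line.

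Ratios between related genes within each library, which do not depend on scaling, were compared for 10 pairs chosen after the values were seen. The ratio, per exon length, was lower in every KO library for 5 pairs, higher in every KO library for 2 and overlapping for 3, and with 3 libraries against 3 a two-sided exact permutation test cannot go below 0.1. The share over other gene pairs was not computed, so these counts only describe the 10 pairs. *Fhl1* to *Fhl2* was 0.127 ± 0.00311 in WT and 0.148 ± 0.00398 in KO, and *Xirp1* to *Xirp2* was 24.2 ± 0.972 and 26.3 ± 0.759. *Neb* to *Nebl* was 0.0943 ± 0.0109 in WT and 0.0747 ± 0.00276 in KO. *Trim55* to *Trim63* was 3.12 ± 0.150 and 2.72 ± 0.0587, and *Pdlim1* to *Pdlim5* was 0.277 ± 0.0284 and 0.237 ± 0.00935. *Synpo2* to *Synpo2l* (0.0374 ± 0.00139 and 0.0339 ± 0.00160) and *Myom1* to *Myom2* (2.13 ± 0.0311 and 2.04 ± 0.0577) were also lower in every KO library. *Alpk2* to *Alpk3*, *Smyd1* to *Smyd2* and *Obsl1* to *Speg* overlapped.

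Of 57 measured other genes of the Z-disc, costamere and sarcomere upkeep, 25 fell, 6 rose and 26 did not pass, with a median log2 fold change of -0.10. The decreases were 43.9% of the 57, beside 15.7% of all genes, and 14.6% of all genes rose. Those called with at least a 1.5-fold change were *Capn3*, a titin-bound protease (2.67 ± 0.803 CPM in WT and 1.73 ± 0.0951 CPM in KO, adjusted p = 0.0499), and *Kbtbd13* (0.572 ± 0.118 and 1.31 ± 0.239 CPM, adjusted p = 0.00943), both at low levels. Among 23 contractile filament genes, 9 fell, 6 rose and 8 did not pass, with a median of -0.04. The decreases were 39.1% of the 23, beside 15.7% of all genes. The 6 increases among 23 also stood above the 14.6% of all genes that rose. *Lmod2*, the thin-filament elongation factor leiomodin 2, fell from 298 ± 15.7 to 97.8 ± 1.53 CPM (log2 fold change -1.60, adjusted p = 3.82e-22). *Myl4* and *Myl7*, the atrial light chains, and *Acta1*, skeletal actin, rose, with log2 fold changes of 1.10, 0.75 and 1.07.

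The transcripts of other cell types in the tissue were also summed. The dissection was described as ventricular. The atrial markers were at 595 to 601 CPM in WT and 1006 to 1030 CPM in KO. Of these 6, 3 were higher (*Myl4*, *Myl7* and *Nppa*). *Nr2f1*, *Nr2f2* and *Stard10* did not pass (log2 fold changes of -0.23, 0.06 and -0.09). The fibroblast markers were at 3946 to 3992 CPM in WT and 3677 to 3746 CPM in KO, with 4 of 8 lower. Summed smooth muscle markers overlapped between groups, at 817 to 879 and 814 to 829 CPM, with 2 of 7 lower and 1 higher. Summed endothelial markers also overlapped, at 1289 to 1295 and 1276 to 1295 CPM, with 3 of 8 lower and 2 higher. So did summed immune markers, at 58.8 to 62.1 and 59.1 to 67.2 CPM, with 1 of 8 lower. Summed epicardial markers were higher in KO (153 CPM in each WT library, 167 to 179 in KO), with 3 of 8 called higher. The sum of the 3 erythroid markers tested was also higher (33.5 to 35.5 and 35.8 to 43.01 CPM), with 1 called lower and 1 higher. The part of these cell types in the differences of the 42 genes was not tested.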

How the data were processed

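Total RNA from ventricular tissue of E18.5 mouse hearts had been depleted of ribosomal RNA and sequenced in pairs of 150 bases. Per the submitters' processing notes, cutadapt 1.18, HISAT2 and StringTie were used with mm10. The authors deposited raw counts per gene, with their own columns of fold change, mean abundance, p-value and adjusted p, which were not used. The counting program, its annotation and its use of strand are not given in the sources used here. Of the 42 genes, 17 share exon bases with another annotated gene. For 7 of them a gene of the table is involved, on the opposite strand in each case, so reads of such pairs cannot be told apart if strand was ignored. *Nexn* and *Pdlim7* share 7.5% and 1.4% of their exon length with genes on the same strand, *Gm43185* and *Mir6945*, neither of them in the table.

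Counts were fitted with edgeR 4.0.16 (R 4.3.3) across 13804 genes: trimmed mean of M-values scaling, filterByExpr and the quasi-likelihood test of genotype, with Benjamini-Hochberg adjustment and calls at an adjusted p under 0.05. The fit was first tested on simulated data. Total counts per library were 15567624 to 19875546, and a floor of 3 counts equals 0.151 to 0.193 CPM. The common biological coefficient of variation was 3.42%. Libraries are named in column order, since the columns carry no replicate numbers. Exon lengths came from the GRCm38 annotation (13299 symbols matched directly, 414 through older symbols, 96 unmatched). Alternatives used limma 3.58.1 and DESeq2 1.42.0, other scalings and filters, sex chromosome genes left out, and each library left out in turn.

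The 43 genes and the other lists were chosen with earlier results of these data known. Values per library were given for members called with at least a 1.2-fold change, for *Ttn*, *Des* and *Nebl*, and by later choice for *Ldb3*, *Speg* and *Obsl1*. Members of other lists were named where called with at least a 1.5-fold change, up to 3 in each direction. Promoters were shown for the 3 largest called increases and, of the 3 largest called decreases, for *Cmya5* and *Myoz2*. *Tcap* had no promoter in the RefSeq sequences used.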

Additional observations from a re-analysis of the deposited data

How the results depend on the processing

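Of 31 called genes, 24 kept their call and direction in each of the 16 alternatives that tested them, and 7 lost it at least once: *Cap2* and *Smyd2* in 11 each, *Ttn* in 4, *Vcl* in 3, *Nexn* in 2, and *Myom2* and *Trim55* in 1. In 1 of its 4, library totals alone, *Ttn* also turned, to 0.0025. Of 11 genes not called, 8 passed at least once. *Nebl* turned to -0.0173 without WT c, and *Synm* to -0.000135 without WT b and -0.0191 without KO b. Leaving out 1 library at a time gave log2 fold changes from -0.0173 to 0.0807 for *Nebl* and -0.0191 to 0.0979 for *Synm*, and 25 to 28 genes lower, 3 to 5 higher (5 without WT a) and a median of -0.14 to -0.11. The number higher was 5 with upper-quartile factors and 7 with library totals alone, where the median was -0.106 and -0.0765. The median of all genes was 0.0204 and 0.0492 in these fits, beside 0.0017 in the main fit, and the cause was not tested. *Pkm* was called in every alternative, from -1.30 to -1.23. No paired analysis was possible because no number in the column headers ties a WT library to a KO library. 3 libraries per genotype, all of one sex in each, limit these values: sex and genotype cannot be told apart. At 15 to 108 counts a library, *Myom3* and *Trim54* had the fewest counts and the largest standard errors.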
